A study of Mus musculus with 12 samples.

Results

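The 10 genes described here, Marco, Cd5l, Clec4f, Vsig4, Timd4, Csf1r, Adgre1, C1qa, C1qb and C1qc, mark the resident macrophages of the liver, the Kupffer cells. They are 10 of the 56065 genes listed in the data, and all 10 had enough reads to be among the 13631 genes tested. They were picked by name, with the difference between livers of mice given cinnabarinic acid and livers of mice given vehicle already known, so their values in that comparison are a description. Poly(A)-selected RNA of snap-frozen livers was sequenced in 12 libraries, 4 in each of 3 groups. All mice carried floxed alleles of the aryl hydrocarbon receptor (AhR fl/fl), were labelled male and entered the study at 8 weeks of age. No Cre is named in the labels, so in all 3 groups the receptor gene is floxed and not stated to be deleted. MD+CA mice ate for 20 weeks a diet that drew 40% of its energy from fat and 20% from fructose and held 2% cholesterol, called the MASH diet after metabolic dysfunction-associated steatohepatitis, and received 12 mg/kg cinnabarinic acid in 0.2% DMSO intraperitoneally 3 times a week. Cinnabarinic acid arises from tryptophan in the kynurenine pathway and binds AhR. MD mice ate the same diet and received the vehicle on the same days. CD mice ate a sucrose-matched control diet that drew 10% of its energy from fat, also for 20 weeks, and the labels do not say whether they were injected. Whether each library is its own mouse is not stated either. If several come from 1 mouse, the p-values below reflect a spread between libraries that may be technical.

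Kupffer cells line the liver sinusoids, where they take up bacteria, aged and dying cells and modified lipoproteins from portal blood. In the mouse they settle before birth and are kept up through the receptor for colony-stimulating factor 1 and by signals from stellate, endothelial and liver parenchymal cells. In mouse models of steatohepatitis, resident cells carrying Timd4 are known to be lost in part and to be joined by macrophages that come from blood monocytes. Clec4f and Vsig4 are typical of the settled Kupffer cell, whereas Csf1r, Adgre1 and the C1q genes are shared by most tissue macrophages. Whole liver was sequenced, so a change in the number of macrophages and a change in RNA per macrophage cannot be told apart.

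In the livers of mice given cinnabarinic acid, every one of the 10 genes had a higher level than in the livers of mice given vehicle (49.7% of all genes tested had a log2 fold change above 0), and for 8 of them the lowest MD+CA library lay above the highest MD library. The scavenger receptor Marco stood farthest apart, with a fitted level 8.67-fold higher, and the secreted protein Cd5l came next at 3.12-fold. The other 8 genes differed by 1.64-fold (Clec4f) to 2.36-fold (Adgre1). Between MD and CD livers 0 of the 10 genes passed the test, where 0.088% of all genes tested passed. Relative to CD livers all 10 had a log2 fold change above 0 in MD+CA livers (52% of all genes), and Marco, Cd5l, Csf1r and C1qb rose in MD+CA livers.

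**Figure D1:**
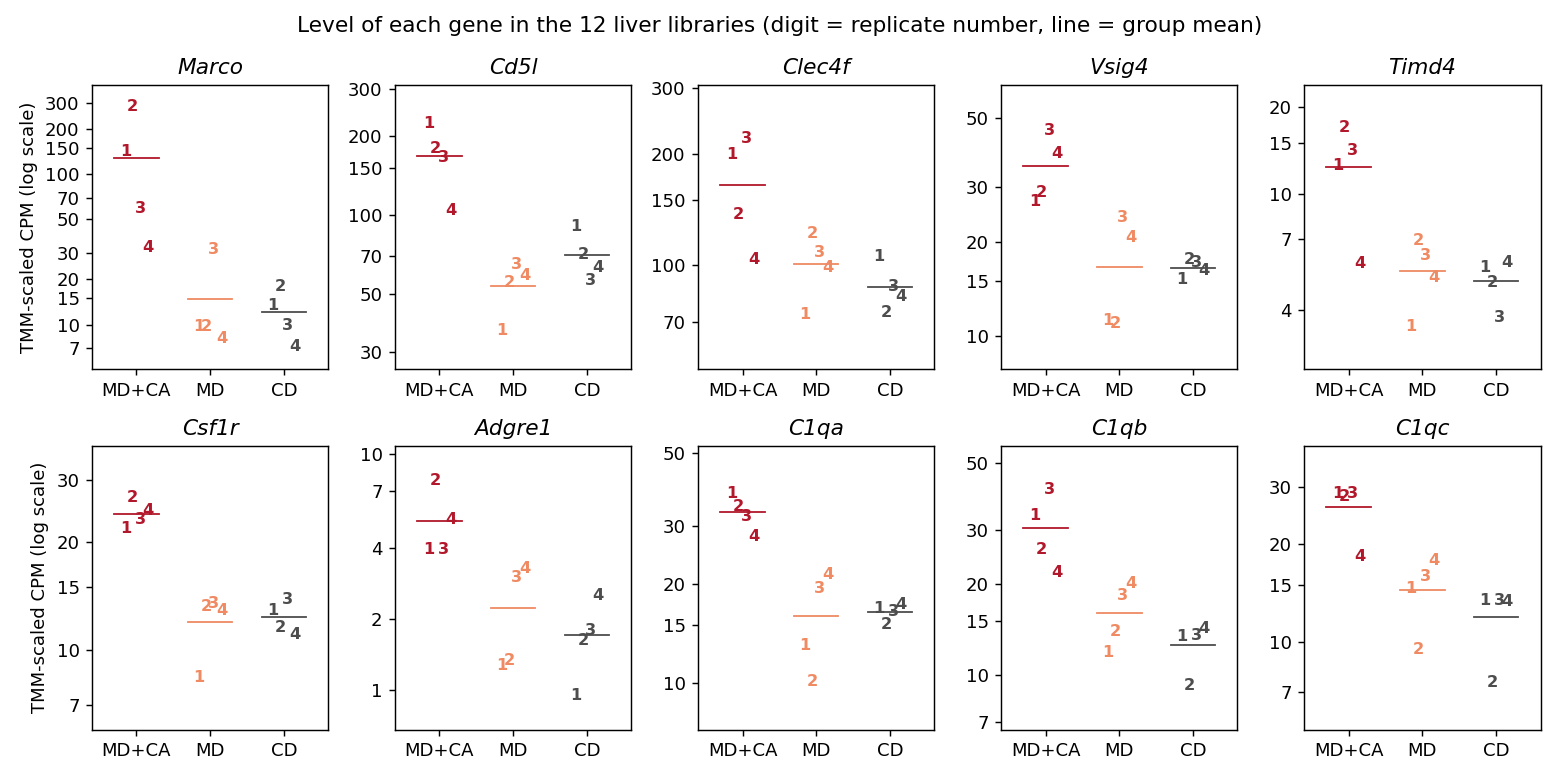
Level of each of the 10 genes in the 12 libraries, in CPM, read counts scaled for library size with TMM factors, on a log axis, with MD+CA, MD and CD from left to right. Each digit is the replicate number of 1 library and each line a group mean. The 4 MD+CA libraries lie above all 8 others for Marco, Cd5l, Vsig4, Csf1r, Adgre1, C1qa, C1qb and C1qc, while Clec4f and Timd4 overlap.

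Each library held 9089586 to 14492587 reads assigned to transcripts. Of the defining genes of the labelled tissue, 6 hepatocyte genes (Alb, Ttr and Hnf4a among them) summed to 48863 to 66967 CPM in MD+CA, 35563 to 62779 CPM in MD and 55250 to 71579 CPM in CD. The data went against the labelled sex. Xist, the RNA of the inactive X chromosome, was present in every library at 5122 to 12865 reads. No read fell on the Y-linked genes Ddx3y, Kdm5d, Uty and Eif2s3y (0 in 12 libraries). The upper limit was 0.207 to 0.33 CPM, from 3 reads over the assigned reads of a library without TMM scaling, counting error only. Mitochondrially encoded genes took 10.7% and 17.5% of the reads of MD replicates 1 and 2, against 4.97% to 9.37% in the other 10 libraries. Their fragment length allowances, 230 and 221 bases, were below those of MD replicates 3 and 4, 261 and 253 bases. MD+CA replicate 1 was at 227 bases, and its 10 genes summed to 727 CPM. For Cd5l, Vsig4, Adgre1, C1qa, C1qb and C1qc, MD replicates 1 and 2 were the lowest in MD, and the part of read composition in that was not tested.

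The genes that follow are shown with the 250 bases upstream of the annotated start for the 2 with the largest differences, Marco and Cd5l, for the complement receptor Vsig4 and for Clec4f, which differed least. The sequences are from RefSeq on build GRCm38.p6, whereas the submitters' processing notes name GRCm39, and 7 of the 10 genes had an entry (Marco, Cd5l, C1qb, C1qc, Clec4f, Timd4 and Vsig4). Marco lies at chr1:120505025-120505274 (minus strand), Cd5l at chr3:87357631-87357880 (plus), Vsig4 at chrX:96293439-96293688 (minus) and Clec4f at chr6:83656117-83656366 (minus). Each is written 5′ to 3′ along its gene, and capitals mark GAGGAA or its reverse complement TTCCTC, the core bound by PU.1 (Spi1), the factor that specifies macrophages.
Marco: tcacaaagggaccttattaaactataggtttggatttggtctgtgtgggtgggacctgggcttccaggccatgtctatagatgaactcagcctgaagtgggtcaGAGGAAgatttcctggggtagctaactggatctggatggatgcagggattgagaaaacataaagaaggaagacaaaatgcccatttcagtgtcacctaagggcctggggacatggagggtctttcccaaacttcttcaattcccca
Cd5l: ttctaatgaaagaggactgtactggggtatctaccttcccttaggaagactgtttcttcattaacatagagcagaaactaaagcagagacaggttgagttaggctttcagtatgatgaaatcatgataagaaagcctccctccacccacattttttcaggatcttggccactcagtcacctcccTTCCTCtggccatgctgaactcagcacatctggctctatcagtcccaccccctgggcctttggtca
Vsig4: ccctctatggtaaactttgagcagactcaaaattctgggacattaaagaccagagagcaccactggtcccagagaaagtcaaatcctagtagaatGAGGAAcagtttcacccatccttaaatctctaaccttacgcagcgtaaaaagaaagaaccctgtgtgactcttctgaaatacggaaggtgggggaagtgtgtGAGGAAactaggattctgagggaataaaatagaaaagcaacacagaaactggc
Clec4f: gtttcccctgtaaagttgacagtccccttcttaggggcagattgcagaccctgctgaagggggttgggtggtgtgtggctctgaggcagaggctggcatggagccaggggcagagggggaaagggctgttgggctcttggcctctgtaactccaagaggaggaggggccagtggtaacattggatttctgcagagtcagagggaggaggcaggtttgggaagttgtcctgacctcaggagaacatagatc
GAGGAA occurred in 5 of the 7 promoters, those of Marco, Cd5l, C1qb, C1qc and Vsig4, against 23.3% of 32851 promoters of the same length. In Marco it stood 146 to 141 bases upstream of the start, in Cd5l 66 to 61, in C1qb 30 to 25 and in C1qc 193 to 188. Vsig4 held it at 155 to 150 and again at 53 to 48. The Clec4f and Timd4 windows lacked these letters but held GGAAGT, which 5 of the 7 had (Vsig4, C1qb and C1qc besides) against 19.7% of all promoters. AGGAAG, which overlaps GAGGAA where the 2 share letters, was in 4 of 7 (29.5% of all), and the longer GAGGAAGT was in C1qc alone (2.44%). TGCTGA was in 4 of 7, Cd5l, C1qb, Clec4f and Timd4 (16.1%), and TGCTGAC, which contains it, in Timd4 (3.81%). The NF-kB motif was in 3 of 7, Marco, C1qb and C1qc (17.6%). None of the 7 held the LXR direct repeat of AGGTCA (0.0152% of all), the interferon response motif (2.98%), TTGCNNAA (9.56%), CACGTG (6.02%), GTCTAGAC (0.167%), TGANTCA (6.75%) or AGATAA (9.99%). The AhR core GCGTG and the longer TTGCGTG that contains it were also in 0 of 7, against 28.2% and 0.925% of all promoters. Both strands were searched for each, and a match describes letters in this window and no more.

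Marco is a class A scavenger receptor that binds bacteria and modified lipoproteins. It was at 141, 281, 59.1 and 32.7 CPM in MD+CA replicates 1 to 4, at 9.74, 9.77, 31.5 and 8.04 CPM in MD and at 13.3, 18.0, 9.84 and 7.09 CPM in CD. All MD+CA libraries were above all others, but MD+CA replicate 4 was close to MD replicate 3, and the highest MD+CA library was 8.58 times the lowest. The log2 fold change was 3.12 (SE 0.61) in MD+CA over MD. It rose in MD+CA relative to CD by 3.42 (SE 0.62, edgeR adjusted p = 0.0307), a comparison that uses the same MD+CA libraries. In MD over CD it was 0.30, less than its SE (0.58, edgeR adjusted p = 0.797). Without MD+CA replicate 2 the log2 fold changes were 2.39 over MD and 2.69 over CD and neither passed, and without MD replicate 3 the value over MD was 3.80. Marco also did not pass over MD without MD replicate 1, 2 or 4 (edgeR adjusted p = 0.063, 0.0605 and 0.0516). Over the fits that left out 1 library, it passed in 8 of 12 over MD and 6 of 12 over CD.

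Cd5l encodes a protein that macrophages secrete, which travels in blood with IgM and is known for keeping macrophages alive and for acting on lipid uptake. Its level was 222, 179, 165 and 104.3 CPM in MD+CA replicates 1 to 4, against 36.4, 55.2, 64.5 and 58.9 CPM in MD and 90.1, 70.7, 56.5 and 63.2 CPM in CD. MD+CA replicate 4 was the lowest of its group and still above every MD and CD library. In MD+CA over MD the log2 fold change was 1.64 (SE 0.26), and Cd5l rose by 1.26 (SE 0.26, edgeR adjusted p = 0.0440) in MD+CA relative to CD. In MD it was 0.38 below CD on the log2 scale (-0.38, SE 0.25, edgeR adjusted p = 0.395), the most negative difference among the 10 genes in that comparison.

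Clec4f is a C-type lectin that in mice is made by Kupffer cells. It stood at 199, 137, 219 and 103.7 CPM in MD+CA replicates 1 to 4, 73.3, 121, 107.9 and 98.7 CPM in MD and 105.6, 74.3, 87.5 and 82.2 CPM in CD. MD+CA replicate 4 lay within the MD and CD ranges. MD+CA over MD gave a log2 fold change of 0.71 (SE 0.25), the smallest of the 10. Relative to CD it was 0.91 in MD+CA (SE 0.25, edgeR adjusted p = 0.121) and 0.20 in MD (SE 0.25, edgeR adjusted p = 0.678).

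Vsig4, the complement receptor CRIg, takes up particles coated with C3 fragments. It had 27.0, 28.9, 45.4 and 38.3 CPM in MD+CA replicates 1 to 4, 11.2, 10.997, 23.9 and 20.6 CPM in MD and 15.2, 17.6, 17.2 and 16.2 CPM in CD. MD libraries fell in a low pair, replicates 1 and 2, and a high pair, replicates 3 and 4, on either side of the narrow CD range. The log2 fold change was 1.06 (SE 0.26) in MD+CA over MD, 1.08 (SE 0.26, edgeR adjusted p = 0.0714) in MD+CA over CD and 0.01 (SE 0.26, edgeR adjusted p = 0.982) in MD over CD.

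Timd4 is a receptor for phosphatidylserine, the lipid that dying cells expose. Its level was 12.6, 17.0, 14.2 and 5.79 CPM in MD+CA replicates 1 to 4, 3.50, 6.92, 6.16 and 5.17 CPM in MD and 5.61, 4.96, 3.76 and 5.84 CPM in CD. MD+CA replicate 4 was below MD replicates 2 and 3 and below CD replicate 4, while the other 3 MD+CA libraries were above all of MD and CD. Its log2 fold change was 1.19 (SE 0.31) in MD+CA over MD and 1.29 (SE 0.31, edgeR adjusted p = 0.0696) in MD+CA over CD. In MD over CD it was 0.10 (SE 0.31, edgeR adjusted p = 0.880).

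Csf1r is the receptor through which colony-stimulating factor 1 keeps macrophages alive. It was at 21.9, 26.7, 23.2 and 24.6 CPM in MD+CA replicates 1 to 4, 8.34, 13.2, 13.4 and 12.9 CPM in MD and 12.8, 11.5, 13.9 and 11.1 CPM in CD. The MD+CA libraries were close to each other, the highest 1.22 times the lowest, and all were above both other groups. In MD+CA over MD the log2 fold change was 1.01 (SE 0.19), and Csf1r rose by 0.97 (SE 0.19, edgeR adjusted p = 0.0334) in MD+CA relative to CD. MD was level with CD at -0.04 (SE 0.19, edgeR adjusted p = 0.919). Adgre1 encodes F4/80, the adhesion receptor used to stain mouse macrophages. Its level was 3.95, 7.78, 3.92 and 5.27 CPM in MD+CA replicates 1 to 4, 1.26, 1.32, 3.005 and 3.26 CPM in MD and 0.946, 1.62, 1.79 and 2.50 CPM in CD. Its reads were few, and all MD+CA libraries were above all MD and CD libraries, which overlapped each other. Adgre1 had a log2 fold change of 1.24 (SE 0.39) in MD+CA over MD, 1.61 (SE 0.40, edgeR adjusted p = 0.0788) in MD+CA over CD and 0.37 (SE 0.40, edgeR adjusted p = 0.621) in MD over CD.

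C1qa, C1qb and C1qc encode the 3 chains of C1q, which starts the classical complement pathway and in the liver comes mainly from macrophages. They lie side by side on chromosome 4 in the order C1qb, C1qc, C1qa, with 0 genes between them in the RefSeq annotation. C1qa was at 37.5, 34.4, 31.9 and 27.8 CPM in MD+CA replicates 1 to 4, 13.0, 10.1, 19.4 and 21.2 CPM in MD and 16.8, 14.99, 16.5 and 17.2 CPM in CD. C1qb was at 33.4, 25.9, 40.8 and 21.7 CPM in MD+CA, 11.8, 13.8, 18.3 and 20.1 CPM in MD and 13.4, 9.22, 13.5 and 14.2 CPM in CD. C1qc was at 28.7, 28.1, 28.7 and 18.3 CPM in MD+CA, 14.6, 9.47, 15.8 and 17.7 CPM in MD and 13.4, 7.50, 13.4 and 13.4 CPM in CD. For each chain all MD+CA libraries lay above all MD and CD libraries, for C1qb and C1qc by a narrow margin over MD replicate 4. The log2 fold change in MD+CA over MD was 1.04 for C1qa (SE 0.22), 0.92 for C1qb (SE 0.24) and 0.84 for C1qc (SE 0.24). In MD+CA over CD, C1qb rose by 1.27 (SE 0.24, edgeR adjusted p = 0.0315), while C1qa at 1.01 (SE 0.22) and C1qc at 1.12 (SE 0.25) each had an edgeR adjusted p of 0.0531. MD over CD gave -0.04 for C1qa, 0.35 for C1qb and 0.27 for C1qc, with edgeR adjusted p of 0.941, 0.417 and 0.544. Corrected for length, the ratio of C1qb to C1qc TPM was 1.38 ± 0.27 in MD+CA, 1.32 ± 0.28 in MD and 1.22 ± 0.09 in CD (SD, n = 4). The C1qa to C1qc ratio was 1.83 ± 0.28, 1.56 ± 0.20 and 1.96 ± 0.43 in MD+CA, MD and CD. The library ranges of both ratios overlapped between the groups.

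**Figure D2:**
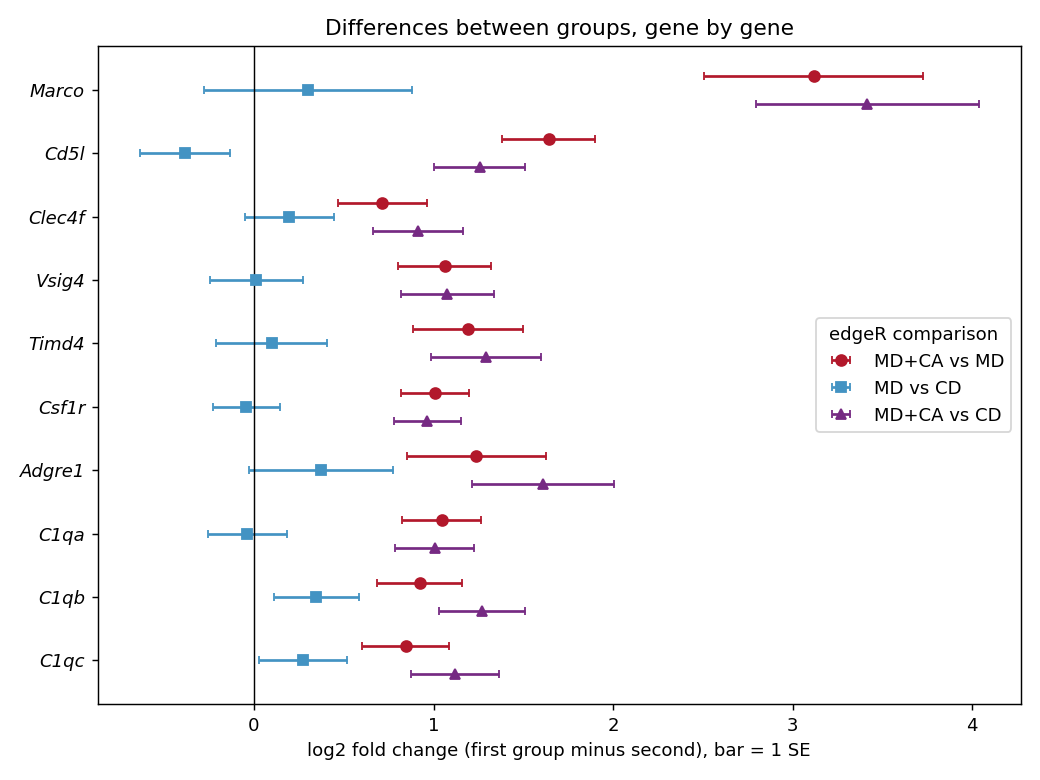
Log2 fold change of each gene in MD+CA over MD (circles), MD over CD (squares) and MD+CA over CD (triangles), with bars of 1 SE from the edgeR model. Both comparisons that contain MD+CA lie right of 0 for all 10 genes, and MD over CD straddles 0.

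Of the 10 genes, 5 passed the test in MD+CA over MD (Marco, Cd5l, Vsig4, Csf1r and C1qa), where 2.71% of all genes tested passed and 1.06% passed as higher. The 8 without overlap stand beside 4.99% of all genes. Both counts come from the comparison known when the genes were picked and are given as a description. With DESeq2 10 of 10 passed, against 8.91% of all genes. The count was 2 without MD+CA replicate 2 (0.858% of all genes passing in that fit) or MD replicate 1 (0.786%). It was 3 without MD+CA replicate 3 (0.926%), MD replicate 2 (0.938%) or MD replicate 4 (1.23%). It was 0 of 10 with edgeR when MD replicates 1 and 2 were left out together, where 0.303% of all genes passed. At an unadjusted p under 0.05 it was 9 of 10 there, against 12% of all genes, and the median log2 fold change was 0.72. In MD+CA over CD 4 of 10 passed, against 0.528% of all genes in either direction and 0.22% higher, and 8 of 10 did not overlap, against 3.48%. DESeq2 called 10 of 10 (2.45% of all genes) and limma voom 8 (1.4%). The edgeR count of 4 was 0 without CD replicate 1, 2, 3 or 4 or without MD+CA replicate 1 or 2, fits in which 0.122% to 0.437% of all genes passed. All 10 had an unadjusted p under 0.05 in these 6 fits, as did 8.2% to 11% of all genes. It was 1 without MD+CA replicate 3 (0.266% of all genes), 2 without MD replicate 4 (0.361%), 7 without MD replicate 2 (0.895%) and 8 without MD+CA replicate 4 (1.21%). In MD over CD 0 of 10 passed with edgeR, DESeq2 or limma voom, where 0.088%, 4.61% and 2.74% of all genes passed. At an unadjusted p under 0.05 it was 0 of 10 too, against 19.9% of all genes. The median log2 fold change of the 10 was 1.05 in MD+CA over MD, 1.19 in MD+CA over CD and 0.15 in MD over CD, beside medians of 0.00, 0.02 and 0.04 over all genes tested. The 2 comparisons with MD+CA share its libraries, and the 2 with CD share those.

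On the deposited TPM scale, which corrects for transcript length, Clec4f was the most abundant of the 10 at 213 ± 73.2 TPM in MD+CA, 109 ± 25.4 TPM in MD and 113 ± 24.5 TPM in CD (SD, n = 4). Cd5l came second in each group with 98.9 ± 28.1, 28.9 ± 8.13 and 41.6 ± 11.2 TPM in MD+CA, MD and CD. Below them in MD and CD came C1qa, Vsig4, C1qb, C1qc, Marco, Csf1r, Timd4 and Adgre1, neighbours in this order mostly differing by less than their SDs. In MD+CA, Marco ranked at position 3 with 59.6 ± 53.4 TPM, and Timd4 (7.87 ± 3.01 TPM) above Csf1r (7.18 ± 1.41 TPM). Marco's SD there is nearly its mean, so its rank rests on MD+CA replicates 1 and 2. Adgre1 was last everywhere, at 2.56 ± 0.82 TPM in MD+CA, 0.895 ± 0.473 TPM in MD and 1.14 ± 0.83 TPM in CD.

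Relative to each other the genes did not keep fixed proportions. The Cd5l level was 1.05 ± 0.23 times that of Clec4f in MD+CA, 0.537 ± 0.072 times in MD and 0.805 ± 0.130 times in CD (CPM, SD, n = 4), and the lowest MD+CA ratio, 0.753, exceeded the highest MD ratio, 0.598. Marco was 0.719 ± 0.584 times Cd5l in MD+CA, 0.268 ± 0.157 in MD and 0.172 ± 0.061 in CD, with overlap between MD+CA and MD. The Timd4 to Csf1r ratio was 0.515 ± 0.188, 0.451 ± 0.054 and 0.416 ± 0.107 in MD+CA, MD and CD. Summed over the 10 genes, levels were 727, 765, 631 and 382 CPM in MD+CA replicates 1 to 4, 183, 252, 304 and 267 CPM in MD and 287, 230, 234 and 233 CPM in CD. Without Marco, the sums were 350 to 586 CPM in MD+CA, 173 to 272 CPM in MD and 212 to 274 CPM in CD.

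Of the 10 genes, Clec4f alone divided its reads between transcripts with at least 10% each. Clec4f-201, protein coding and 2471 bases long, held 51.2 ± 8.93% of them in MD+CA, 53.0 ± 1.84% in MD and 51.9 ± 3.11% in CD. Clec4f-202, 608 bases long with no defined coding region, held the rest. The protein-coding transcript was at 83.2, 71.4, 104.8 and 65.3 CPM in MD+CA replicates 1 to 4, at 39.3, 65.4, 58.4 and 49.6 CPM in MD and at 52.5, 36.4, 48.6 and 44.0 CPM in CD. MD+CA replicate 4 was level with MD replicate 2, and the other MD+CA libraries were above all of MD and CD. Clec4f-202 was at 115.7, 65.4, 114.2 and 38.3 CPM in MD+CA, 34.0, 55.9, 49.5 and 49.1 CPM in MD and 53.2, 37.9, 38.9 and 38.2 CPM in CD, and overlapped. How an estimate splits reads between overlapping transcripts adds error that these values do not show. In TPM, Clec4f-202 took 178 ± 69.4 of the 213 in MD+CA, which puts the short transcript at the head of the order above.

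**Figure D3:**
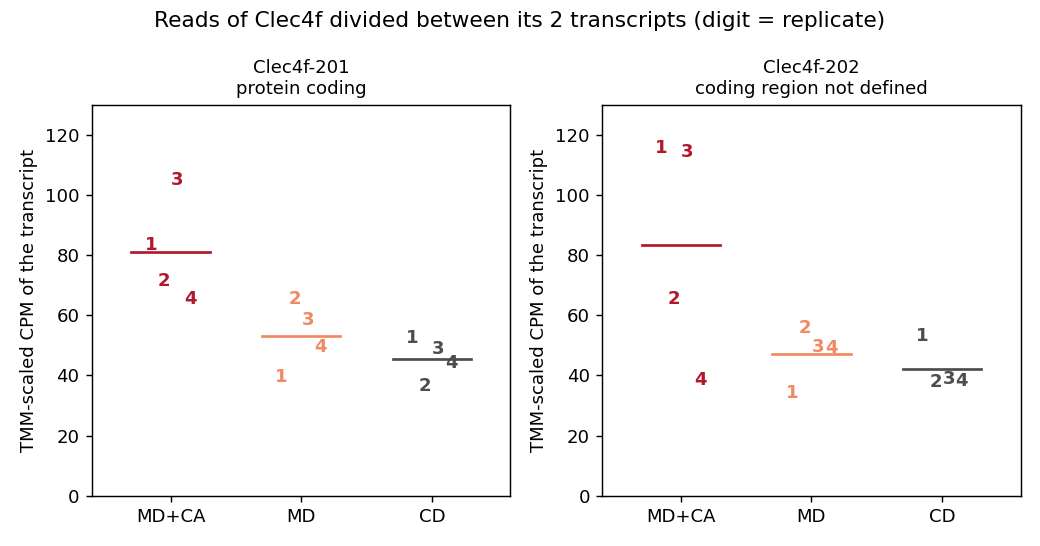
Reads assigned to Clec4f-201 and Clec4f-202 in the 12 libraries, as TMM-scaled CPM on a linear axis, with MD+CA, MD and CD from left to right, 1 digit per replicate and a line at each mean. The 4 MD+CA values of Clec4f-201 span 65.3 to 104.8 and those of Clec4f-202 span 38.3 to 115.7.

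The C1 partners C1ra and C1s1, made mainly by hepatocytes, were listed with 6 other genes, not all of them components of the classical pathway. Of these, 0 of 8 passed with edgeR in each comparison. At an unadjusted p under 0.05 there were 4 higher, 0 and 2 lower in MD+CA over MD, MD+CA over CD and MD over CD. Of all genes tested, 23.2%, 10.5% and 19.9% had such a p in either direction, in the same order. Those shares belong beside every list count at that p here and below. Ligands of CSF1R and niche signals also had 0 of 8 tested pass, with 1 lower, 0 and 3 higher at that p. Of these 8, 1 had a log2 fold change above 0 in MD+CA over MD, and the median was -0.32. Eng, a co-receptor for TGF-beta family ligands, was at 19.0 ± 4.66 CPM in MD+CA, 32.7 ± 7.28 CPM in MD and 20.6 ± 3.59 CPM in CD, all MD+CA libraries lying below all MD libraries (edgeR adjusted p = 0.0604). Csf1 was at 7.26 ± 1.89 CPM in MD+CA, 9.90 ± 1.73 CPM in MD and 5.63 ± 0.48 CPM in CD. The 17 other genes tied to resident macrophages summed to 516 to 600 CPM in MD+CA, 505 to 595 CPM in MD and 451 to 523 CPM in CD, which overlapped. In MD+CA over MD 15 of the 17 had a log2 fold change above 0, with a list median of 0.64. With edgeR, 3 rose in that comparison and 1 passed as lower. C6, a terminal complement component, was at 17.4 ± 11.6 CPM in MD+CA and 4.69 ± 1.59 CPM in MD (edgeR adjusted p = 0.0198). Siglec1, a sialic acid receptor, was at 6.83 ± 1.75 and 2.58 ± 1.28 CPM (edgeR adjusted p = 0.0415), and Hmox1, haem oxygenase 1, at 21.7 ± 5.75 and 8.53 ± 4.67 CPM (edgeR adjusted p = 0.0409). In MD over CD 0 of 17 passed with edgeR, with 1 at an unadjusted p under 0.05, and in MD+CA over CD only Il18bp, an inhibitor of interleukin 18, did at 1.23 (SE 0.25, edgeR adjusted p = 0.0446).

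Macrophage genes of all origins, 16 in number, summed to 348 to 491 CPM in MD+CA, 173 to 214 CPM in MD and 164 to 191 CPM in CD. Of these, 5 rose in MD+CA over MD and 6 in MD+CA over CD, against 0 in MD over CD with edgeR, where 7 had an unadjusted p under 0.05, all 7 higher. Mpeg1, perforin-2, rose by 1.39 (SE 0.19, edgeR adjusted p = 0.00350) in MD+CA over MD and by 1.31 (SE 0.19, edgeR adjusted p = 0.00902) over CD. Aif1, Fcgr1, Ctss and Cybb were the other 4 that rose in MD+CA over MD, and Cd68, Sirpa, Laptm5, Tyrobp and Aif1 the other 5 in MD+CA over CD. The list median was 0.79 in MD+CA over MD and 1.15 in MD+CA over CD. Lpl, which hydrolyses triglyceride and is among the lipid-associated macrophage genes (7 tested of 10), was the 1 member of its list to pass. It was at 91.5 ± 36.6 CPM in MD+CA against 27.8 ± 6.24 CPM in MD and 28.1 ± 6.25 CPM in CD (edgeR adjusted p = 0.0120 and 0.0138). The list as a whole did not go with it, with medians of 0.05 over MD and 0.09 over CD. Of its 7 tested genes, 4 had a log2 fold change above 0 over MD and 5 over CD. Fabp5, a fatty acid carrier, made up most of that list's sum in CD, at 107.2 ± 130.8 CPM in MD+CA, 75.5 ± 41.9 CPM in MD and 727 ± 315 CPM in CD (edgeR adjusted p = 0.0888 for MD over CD). Among 9 genes of apoptotic cell uptake 1 passed in each comparison with MD+CA, the receptor Axl, by 1.08 (edgeR adjusted p = 0.0145) over MD and 1.22 (edgeR adjusted p = 0.00902) over CD. The median of that list was 0.02 over MD and 0.48 over CD. Mertk, a receptor of the same family, was at 27.6 ± 6.76 CPM in MD+CA, 49.9 ± 25.9 CPM in MD and 25.4 ± 5.75 CPM in CD, a log2 fold change of -0.85 over MD (edgeR adjusted p = 0.116). Of 7 scavenger receptors tested 1 rose in MD+CA over MD, Msr1, a class A receptor like Marco, by 1.22 (edgeR adjusted p = 0.0179), with a list median of 0.29. Over CD 0 of the 7 passed with edgeR, with 2 at an unadjusted p under 0.05.

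**Figure D4:**
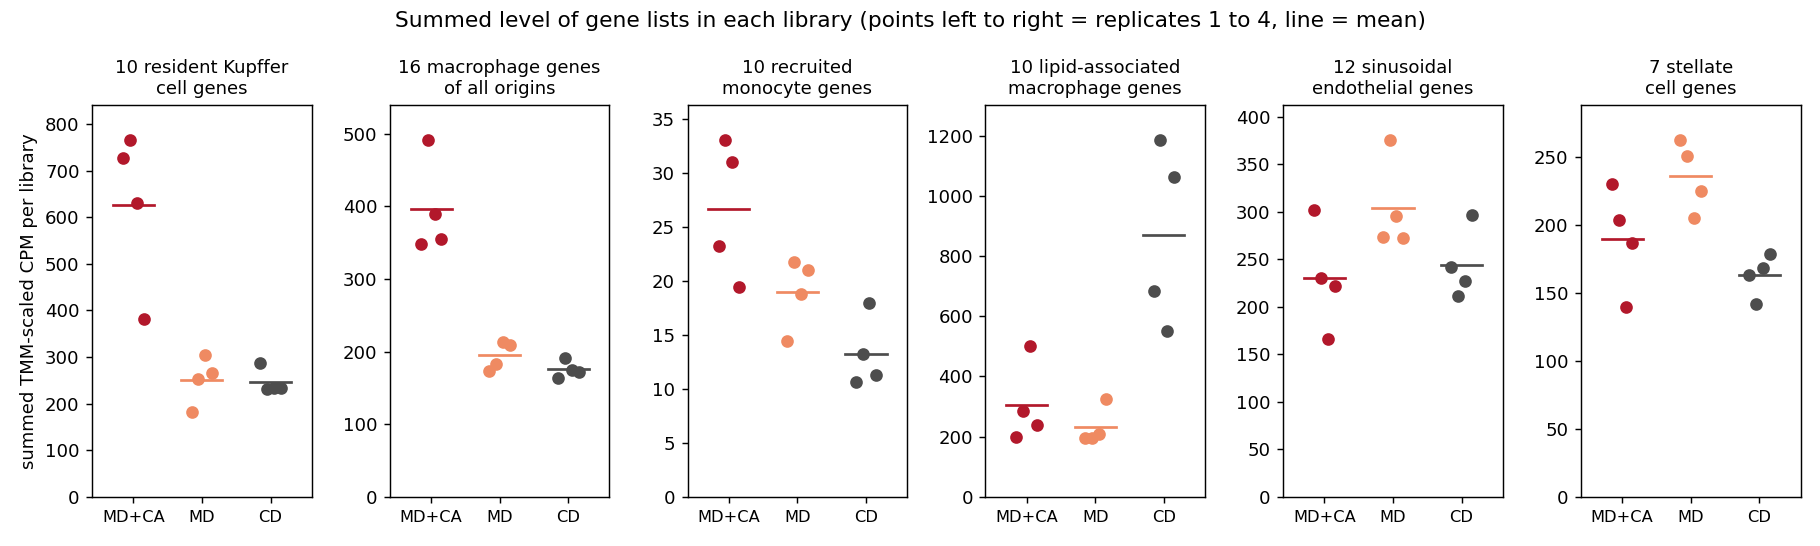
Summed TMM-scaled CPM of 6 gene lists in each library, with MD+CA, MD and CD from left to right, points running from replicate 1 to 4 and a line at the group mean. The 10 resident genes and the 16 macrophage genes sit highest in all 4 MD+CA libraries, and the other 4 lists overlap between MD+CA and MD.

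Recruited monocyte genes summed to 19.5 to 33.1 CPM in MD+CA, 14.4 to 21.8 CPM in MD and 10.7 to 18.0 CPM in CD, and 0 of the 6 tested (of 10 listed) passed with edgeR, with 1, 2 and 1, all higher, at an unadjusted p under 0.05 in MD+CA over MD, MD+CA over CD and MD over CD. Chil3 was at 0 reads in every MD and CD library and at 14 reads in the 4 MD+CA libraries together. Of the 6 T and NK cell genes 1 was tested, Cd3g, a chain of the T cell receptor complex. It averaged 3.27 ± 1.38 CPM in MD+CA, 1.58 ± 0.64 CPM in MD and 1.38 ± 0.58 CPM in CD (SD, n = 4). All MD+CA libraries were above all others, with log2 fold changes of 1.06 over MD and 1.25 over CD (edgeR adjusted p = 0.143 and 0.217). The 6 genes summed to 3.92 to 10.6 CPM in MD+CA, 1.67 to 3.56 CPM in MD and 2.57 to 3.75 CPM in CD. The neutrophil list also had 1 gene tested. Ly6g, which defines neutrophils, was at 0 reads in all 12 libraries. S100a9 averaged 4.73 ± 5.26 CPM in MD+CA, 0.815 ± 0.784 CPM in MD and 0.748 ± 0.819 CPM in CD (edgeR adjusted p = 0.126 for MD+CA over MD). Its MD+CA replicates 1 to 4 were at 2.30, 3.60, 12.4 and 0.605 CPM, the last within the MD and CD ranges. Sinusoidal endothelial genes summed to 166 to 302 CPM in MD+CA, 273 to 375 CPM in MD and 211 to 297 CPM in CD (0 of 12 passed with edgeR, 5 lower, 0 and 4 higher at an unadjusted p under 0.05 in the same order of comparisons). Stellate genes summed to 140 to 230 CPM in MD+CA, 205 to 262 CPM in MD and 142 to 179 CPM in CD (0 of 7 passed, 1 lower, 1 higher and 2 higher at that p). The part of these cells in the results above was not tested. Of all genes tested, 23.2%, 10.5% and 19.9% had an unadjusted p under 0.05 in either direction, in the same order of comparisons.

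The 8 protein-coding genes whose levels over the 12 libraries most resembled the mean of the 10 standardized genes were Pilra, Axl, Lilra5, Plcg2, Cyba, Spi1, Cmpk2 and Apbb1ip. Pearson's r was 0.930 for Pilra, 0.928 for Axl and 0.902 for Apbb1ip, the eighth of 10799 genes ranked, as a description over 12 libraries that share group and depth. Between each member and the mean of the other members, r ran between 0.814 for Adgre1 and 0.932 for C1qa. The standardized mean of the 10 was 1.28, 1.34, 1.34 and 0.557 in MD+CA replicates 1 to 4, -1.10, -0.748, -0.031 and -0.182 in MD and -0.502, -0.808, -0.603 and -0.542 in CD. Within MD+CA, replicate 4 was nearest the other groups, and MD replicate 1 lay lowest of the 12.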

How the data were processed

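Per the submitters' processing notes, reads were handled with fastp, Salmon 1.10.3 and DESeq2 on build GRCm39. The run options and transcript annotation were not given in the sources used here. Each deposited table lists 147556 transcripts with an estimated count (not normalized), a TPM value and an effective length, per the file headers. Estimated counts were summed per gene over 56065 genes and rounded. edgeR 4.0.16 (filterByExpr, minimum count 10, TMM scaling) left 13631 genes, and 1 quasi-likelihood model with a mean per group took in all 12 libraries, leaving 9 residual degrees of freedom and a common coefficient of variation of 0.308. P-values were adjusted by Benjamini-Hochberg across the 13631 genes, at a threshold of 0.05. The standard error is the log2 fold change over the square root of F. CPM is TMM-scaled except in the upper limit for the Y-linked genes, and deposited TPM was used only to compare levels between genes.

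The steps were tested on simulated data. The 10 genes and all gene lists were chosen with earlier results of these data known. The rule for naming genes took all 10, the sex and tissue checks and the 8 most similar genes. Of each list it took the genes passing with the smallest p, or the 2 smallest where none passed. Not every gene it took is named, and some lists are given only as counts or sums or are left out. Some named genes, C1s1 among them, lie outside it. Ctss, Cybb, Laptm5, Tyrobp and Aif1 over CD, and Chil3 and Ly6g, were named after their values were seen. Alternatives were RLE and upper-quartile scaling, DESeq2 1.42.0, limma 3.58.1 voom with sample weights, no filter on low counts, an offset for average transcript length, the protein-coding genes alone, only the compared groups, a replicate block, a fragment length covariate and leaving out each library; leaving out MD replicates 1 and 2 together was added after seeing the data. No pair of libraries of the same group agreed within sampling noise, and pairs across groups were not compared. Figures were drawn with matplotlib 3.10.9, and R 4.3.3, Python 3.11.15 and pandas 2.3.3 were used. A result that the rule for named genes takes is not reported here.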

Additional observations from a re-analysis of the deposited data

Results flagged for a closer look

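In 6 of the 33 sets of 4 libraries tested, 1 library stood apart by the gap from its nearest neighbour as a share of the range. Sets of 4 drawn at random from a normal distribution would show this about 1 time in 20. Marco in MD had a gap of 0.926 of the range, replicate 3 at 31.5 CPM lying above the others. Csf1r in MD had 0.892, replicate 1 at 8.34 CPM lying below. C1qb in CD had 0.837 and C1qc in CD 0.984, replicate 2 being lowest for both, at 9.22 and 7.50 CPM. C1qc in MD+CA had 0.935, replicate 4 lying below at 18.3 CPM. The summed level of the 10 genes in CD had 0.940, replicate 1 lying above at 287 CPM.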

How the results depend on the processing

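All 10 genes kept a positive log2 fold change in both comparisons with MD+CA under every alternative run, and MD over CD gave 0 of 10 under all 23. In MD+CA over MD the count of 5 became 10 with DESeq2 (8.91% of all genes called), 8 with no low-count filter (3.75%), 2 with only the 2 compared groups (0.747%), 3 with the fragment length covariate (1.04%) and 0 without MD replicates 1 and 2 (0.303%), and ran 2 to 7 over the fits that left out 1 library. In MD+CA over CD the count of 4 became 10 with DESeq2 (2.45%), 8 with voom (1.4%), 9 with no low-count filter (1.44%), 1 with the length offset (0.249%), 8 with the fragment covariate (1.2%), 7 without MD replicates 1 and 2 (0.641%), and 0 to 8 over the fits that left out 1 library. The cause was not tested. No label says what a shared replicate number stands for, so the samples were not treated as paired. Deviations of same-numbered libraries correlated between -0.079 and 0.350, over 0.1 in 8 of 12 pairs and best with their own number in 9 of 12, a hint of pairing that not every pair shows. With the replicate block the counts were 7, 8 and 0 in MD+CA over MD, MD+CA over CD and MD over CD, where 4.87%, 1.13% and 0.088% of all genes passed.

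Some small MD over CD differences changed sign, none of them called. Upper-quartile scaling, which moved the median of all genes there to 0.11, gave 0.02 for Csf1r and 0.03 for C1qa. With voom Timd4 was -0.06 and C1qa 0.08, with no filter Vsig4 was -0.02, with the length offset Vsig4 was -0.03 and Adgre1 -0.13, with the block Vsig4 was -0.07, and with the fragment covariate Csf1r was 0.05 and C1qa 0.03. With 1 library left out, Csf1r ran over -0.11 to 0.10, C1qa over -0.21 to 0.12, Timd4 over -0.03 to 0.26, Vsig4 over -0.22 to 0.17 and Marco over -0.39 to 0.55. Without MD replicates 1 and 2, Csf1r was 0.09 and C1qa 0.31.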
